A study of Saccharomyces cerevisiae with 36 samples.

Results

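The early response of budding yeast to a low dose of caffeine was measured on 2 arrays, on which RNA of cells given 2 mM caffeine for 15 min was hybridised against RNA of untreated cells of that time point. They are 2 of the 36 arrays of a time course in Saccharomyces cerevisiae with calcofluor white, congo red and caffeine, each at 2 doses and 3 times, and were chosen by the drug, dose and time in their labels. Replicate 1 carried treated RNA in Cy5 and replicate 2 carried it in Cy3, and the series' design describes such pairs as biological replicates with switched dyes. The control of each array was the untreated channel (0 mM caffeine). The sources used here do not give the strain, medium or growth phase, and ratios hold no levels of single transcripts, so the labelled organism could not be checked against marker levels.

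Caffeine is a purine analogue that inhibits the TORC1 kinase in yeast. TORC1 is the growth regulator that, on good nitrogen, keeps ribosome production high and holds back a pair of gene groups, those for poor nitrogen sources, driven by the GATA activators Gln3 and Gat1, and the retrograde genes, driven by Rtg1 and Rtg3. The retrograde genes feed the citrate cycle to supply glutamate, and the peroxisomal citrate synthase gene CIT2 is their standard reporter. Caffeine also activates the cell wall integrity kinases and inhibits cAMP phosphodiesterase, and cells with a weakened wall are sensitive to it.

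All values below are log2 ratios of treated over untreated RNA. An estimate is given ± its standard error (SE) from limma, a linear model fitted here to all 36 arrays with a dye term for each gene, and n = 2 arrays. Each gene has a single residual variance, estimated over the series, so the SE is not the gap between the 2 arrays of this condition. A gene is said to have risen or fallen, or is called, where the Benjamini-Hochberg adjusted p of that fit was below 0.05. Precision is limited by having 2 arrays, and the median 95% interval reached 0.35 to either side of an estimate.

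The 2 arrays differed over most genes. Their values correlated at −0.03 across 5366 genes, and at 0.23 after the dye term was removed, and 46.8% of genes had the same sign on both. The dye term itself passed the threshold for 63.1% of genes. The direction of the ratios is not settled, because the deposited values do not state the numerator and replicate 1 correlated at −0.38 over genes with replicate 1 of 2 mM caffeine at 5 min, an array of the same dye orientation. Replicate 1 correlated at −0.22 with replicate 1 of 2 mM at 90 min and at 0.66 with replicate 1 of 20 mM at 15 min, while replicate 2 correlated at 0.26 to 0.53 with all other arrays of its orientation. Arrays of 1 orientation share dye effects. With the dye term removed, replicate 1 stood at −0.60 with the 5 min array, at −0.65 with that of 90 min and at 0.67 with that of 20 mM at 15 min, and replicate 2 ran from −0.15 to 0.34, below 0 for 7 of 17 arrays. Treated over untreated was assumed on every array. With the sign of replicate 1 turned, 0 genes were called by limma (590 at an unadjusted p below 0.05), and with that of replicate 2 turned 2 were called (587 unadjusted), none of them among the genes below. With neither sign turned, 494 genes had an unadjusted p below 0.05. The loss of the genes below follows from how they were called, on the mean of both arrays, so these counts do not settle the direction. Of the 29 called genes, 4 had the same sign on all 12 caffeine arrays, the 5 min array included. These were CIT2, CIT1, DIP5 and RPM2, all above 0, with lowest values of 0.07 for DIP5 and 0.03 for RPM2. They were chosen by their values on 2 of these arrays.

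Few genes were called. The 3 highest estimates among them were those of the citrate synthase genes CIT2 and CIT1 and of the acidic amino acid permease gene DIP5. Of the 5366 genes tested, 29 were called (0.54%), of which 23 rose (0.429%) and 6 fell (0.112%). A total of 494 genes had an unadjusted p below 0.05. Over all tested genes, 23.3% lay above 0 on both arrays and 23.5% below 0 on both. All 29 called genes lay on the same side of 0 on both arrays, from which nothing is read, since they were called on the mean of the same 2 arrays. The called changes ran from 1.44-fold (YAR1) to 4.12-fold (CIT2). Over all genes the median was 0.00 and 94.7% lay within 0.5 of 0. Of the 24 genes with an estimate of at least 1 in size, 11 were called, and 11 of the 24 had arrays that differed by more than 1.

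The calls rest on the whole series for their spread. With the 12 caffeine arrays alone 0 genes were called by limma (253 at an unadjusted p below 0.05), and without the dye term 11 of the 29 were called, all of them higher. Without replicate 1, 18 genes were called, 12 of them among the 29, and without replicate 2 also 18, 10 of them among the 29. CIT2, CIT1, DIP5, YOX1, MRPS5 and GAL2 were called without either array, and 13 of the 29 in neither of these fits.

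**Figure D1:**
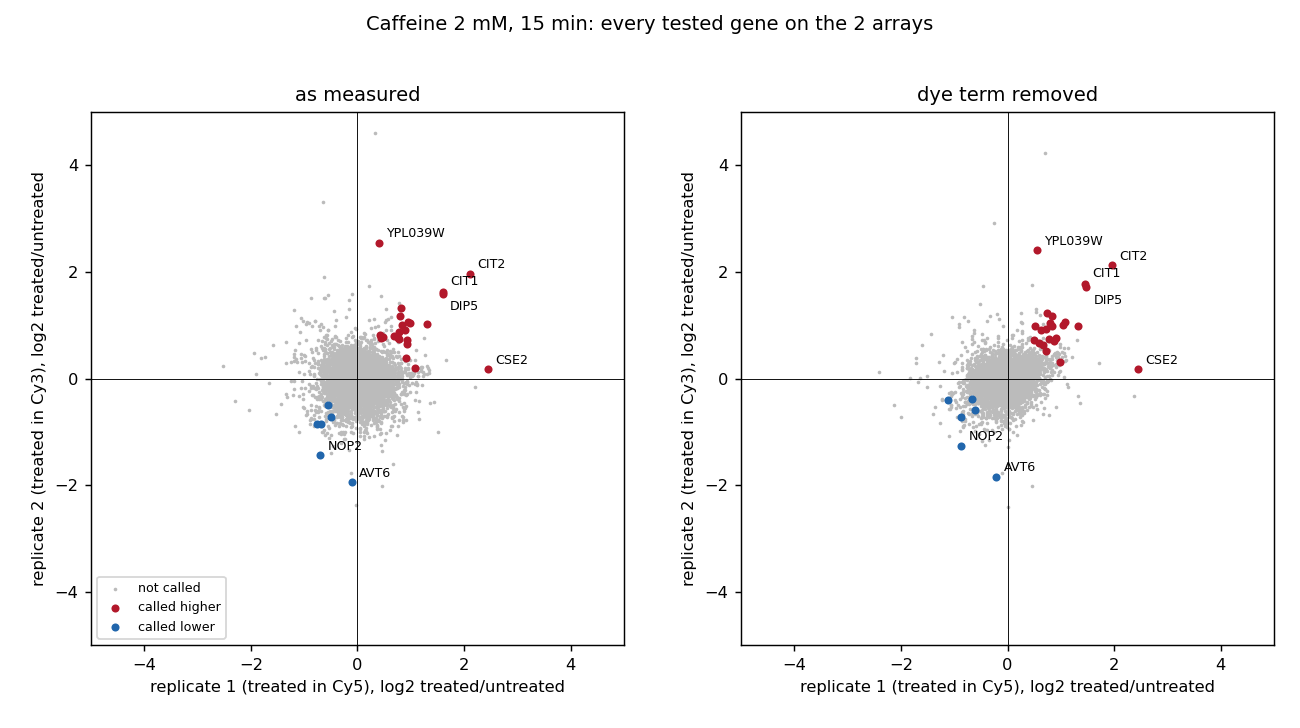
Log2 ratio of treated over untreated RNA on replicate 2 (vertical) against replicate 1 (horizontal) for every tested gene at 2 mM caffeine, 15 min, as measured (left) and with the dye term removed (right). Grey points are the genes not called, red those called higher and blue those called lower. CIT2, CIT1 and DIP5 stand apart on both arrays, whereas YPL039W, CSE2 and AVT6 lie far from 0 on 1 array only.

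The largest rise was that of CIT2, which encodes the peroxisomal citrate synthase. Its log2 ratio was 2.12 on replicate 1 and 1.97 on replicate 2, and all 4 spots lay between 1.96 and 2.19. Both arrays were far above 0 and close to each other. The estimate was 2.04 ± 0.20, a rise of 4.12-fold (adjusted p = 6.74e-06). CIT1, the mitochondrial citrate synthase that opens the citrate cycle, stood at 1.60 and 1.63, with an estimate of 1.61 ± 0.17 (adjusted p = 2.28e-05), or 3.06-fold. PYC1 encodes a pyruvate carboxylase, which makes the oxaloacetate that citrate synthase uses. It read 0.93 and 0.64 on the arrays and rose by 0.79 ± 0.11 (adjusted p = 0.000243), and without replicate 1 its value was 0.70 and the adjusted p 0.0633.

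These 3 genes were the called members of a list of 13 retrograde and citrate cycle genes, of which 10 did not pass the test. Over all tested genes 0.54% were called. The median of the list was 0.30, against 0.00 over all tested genes. Of the 13, 9 (69.2%) lay above 0 on both arrays, against 23.3% of all tested genes. The enzymes below the called ones were PDH1, a mitochondrial protein of propionate use, at 0.38 and 0.98 (0.68 ± 0.19, adjusted p = 0.158), and DLD3, a D-lactate dehydrogenase and retrograde target, at 0.60 and 0.52. The isocitrate dehydrogenase subunits IDH1 and IDH2 read 0.61 and 0.45 and 0.05 and 0.55. The regulators did not stand out in either direction, with estimates of 0.18 for RTG1, 0.02 for RTG2, −0.05 for RTG3 and −0.08 for the inhibitor MKS1. CIT3, the minor mitochondrial citrate synthase, lay at −0.57 and 0.21, on opposite sides of 0.

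Among genes of nitrogen use, the acidic amino acid permease DIP5, which takes up glutamate and aspartate, showed the largest value. It read 1.61 on replicate 1 and 1.58 on replicate 2, nearly the same, and rose by 1.59 ± 0.20 (adjusted p = 7.16e-05), or 3.02-fold. It was the 1 called gene among 19 tested amino acid permeases, whose median was 0.04, against 0.54% of all tested genes called. The broad permease AGP1 stood at 0.17 and 0.72 and GNP1, a glutamine permease, at 0.25 and 0.44, and neither passed. AVT6, which exports acidic amino acids from the vacuole, was called lower at −1.03 ± 0.23 (adjusted p = 0.0429). That value came from 1 spot, since replicate 1 read −0.10 and the spots of replicate 2 read −3.91 and 0.01. Without replicate 2 AVT6 stood at −0.16 and was not called, nor was it without the dye term (adjusted p = 0.188).

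GLN1, which encodes glutamine synthetase, stood at 0.79 and 0.74 and rose by 0.76 ± 0.13 (adjusted p = 0.00349). It was the 1 called gene of 18 targets of nitrogen catabolite repression, whose median was 0.15, against 0.54% of all tested genes called. Of the 18, 8 (44.4%) lay above 0 on both arrays, against 23.3% of all tested genes. The others named by the rule were the activator GAT1 at 0.26 and 0.73 (0.49 ± 0.14, adjusted p = 0.212), AGP1, and UGA1, which breaks down GABA, at 1.09 and 0.53 (adjusted p = 0.517). The general permease GAP1 read 0.59 and 0.25 and the ammonium permease MEP2 read 1.08 and 0.35, while MEP1 read −1.19 and −0.20, and none of these passed. Outside the lists, and named after their values were seen, arginase CAR1 read 0.44 and 0.77 (0.61 ± 0.13, adjusted p = 0.0284), and ARO10, a decarboxylase of aromatic amino acid breakdown, read 0.47 and 0.78 (0.63 ± 0.13, adjusted p = 0.0219). GLN1, CAR1 and ARO10 were not called without replicate 1 (values 0.75, 0.72 and 0.67) or without replicate 2 (0.78, 0.49 and 0.59), and CAR1 and ARO10 not without the dye term (adjusted p = 0.153 and 0.386).

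Over all tested genes 0.54% were called, and among 37 amino acid synthesis genes under Gcn4 the 1 called gene was lower. It was CPA1, a subunit of the carbamoyl phosphate synthetase of arginine synthesis, at −0.68 and −0.84 (−0.76 ± 0.17, adjusted p = 0.0366). Its dye term was 0.87, and it read −0.39 without replicate 1, where it was not called (adjusted p = 0.999), and −1.14 without replicate 2. Without the dye term it was not called (adjusted p = 0.9996). The median of this list was −0.06, with 14 of 37 (37.8%) below 0 on both arrays, against 23.5% of all tested genes.

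Some hexose transporter genes rose. Of 25 genes on a list of hexose transport and glucose sensing, 5 were called, all higher, against 0.429% of all tested genes called higher. The median was 0.27, and 16 (64%) lay above 0 on both arrays, against 23.3% of all tested genes. HXT13 read 0.80 and 1.18 (0.99 ± 0.14, adjusted p = 0.000543). GAL2, the galactose permease that also carries glucose, read 0.89 and 0.92 (0.91 ± 0.11, adjusted p = 7.16e-05). HXT7, a high affinity glucose transporter, read 0.92 and 0.73 (0.82 ± 0.18, adjusted p = 0.0312). Each of these genes stood well above 0 on both arrays. HXT11 stood at 0.77 on each array (adjusted p = 0.00261), and HXT2, an inducible high affinity transporter, at 0.91 and 0.39 (adjusted p = 0.0175). A further member of the family outside the list, HXT12, which is a pseudogene in the reference strain, read 0.96 and 1.06 (1.01 ± 0.13, adjusted p = 0.000197).

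Taking the whole HXT and GAL2 family on the array, a set put together after its values were seen, 6 of 18 genes were called higher and 0 lower, the median was 0.60, and 15 of 18 lay above 0 on both arrays. Over all tested genes, 0.429% were called higher and 23.3% lay above 0 on both arrays. The 12 members that did not pass were led by HXT9 at 0.76 and 0.68 (0.72 ± 0.17, adjusted p = 0.0782) and HXT6 at 0.94 and 0.27 (adjusted p = 0.196). HXT1, the low affinity transporter of high glucose, read 0.43 and 0.16, and HXT3 read 0.81 and 0.13. Only HXT14, at −0.18 and 0.12, HXT4, at 0.57 and −0.06, and HXT5, a transporter of slow growth, at −1.03 and −0.04, were not above 0 on both. HXT6 and HXT7 are near-identical, as are HXT9, HXT11 and HXT12 and as are HXT13, HXT15, HXT16 and HXT17, so the spots of 1 gene of each set can hybridise with RNA of the others and the genes do not count as separate observations. Without replicate 2, HXT12, HXT13 and HXT11 kept values of 0.83, 0.73 and 0.61 and were not called. HXT7 (0.94 and 0.71) and HXT2 (0.63 and 0.67) were called with neither array left out, and HXT7, HXT11 and HXT2 not without the dye term (adjusted p = 0.637, 0.202 and 0.9996).

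HXK1, the hexokinase that is repressed on high glucose, read 0.81 on replicate 1 and 1.32 on replicate 2. It rose by 1.06 ± 0.17, or 2.09-fold (adjusted p = 0.00233). It was the 1 called gene of 26 on the glycolysis list (median 0.04) and of 46 on the list of general stress genes of Msn2 and Msn4 (median 0.08). The share called over all tested genes was 0.54%. On the stress list 15 of 46 (32.6%) lay above 0 on both arrays, against 23.3% of all tested genes. Glucokinase GLK1 read −0.03 and 0.94 (adjusted p = 0.365), on opposite sides of 0. HXK1 was not called without replicate 1 (1.06, adjusted p = 0.118), without replicate 2 (1.07, adjusted p = 0.0994) or without the dye term (adjusted p = 0.386).

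A pair of genes of mitochondrial gene expression rose. MRPS5, a protein of the small mitochondrial ribosomal subunit, read 0.84 and 1.0 (0.92 ± 0.11, adjusted p = 8.69e-05). It was the 1 called gene among 65 mitochondrial ribosomal proteins, against 0.54% of all tested genes called. The median of these proteins was 0.01, so the rise was not seen over that list. RPM2, which encodes the protein subunit of mitochondrial RNase P, read 1.30 and 1.02 (1.16 ± 0.25, adjusted p = 0.0360), and was called neither without replicate 1 (0.98, adjusted p = 0.832) nor without replicate 2 (1.34, adjusted p = 0.252), nor without the dye term (adjusted p = 0.0699).

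None of 40 respiratory chain and ATP synthase genes was called, but 26 of them (65%) lay above 0 on both arrays and 0 below 0 on both, against 23.3% and 23.5% of all tested genes. The median was 0.20 and 14 of the 40 had an unadjusted p below 0.05, all higher. Among all 5366 tested genes, 494 had such a p in either direction, and 0.54% were called. The lowest p values of the list were those of QCR6, of the cytochrome bc1 complex, at 0.34 and 0.55 (0.45 ± 0.11, adjusted p = 0.0893), COX4, of cytochrome oxidase, at 0.49 and 0.61 (0.55 ± 0.14, adjusted p = 0.0954), and ATP7, of the ATP synthase, at 0.40 and 0.35 (0.38 ± 0.10, adjusted p = 0.125). The largest estimate was that of ATP2, the beta subunit of the ATP synthase, at 1.25 and 0.76 (adjusted p = 0.333).

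The 6 genes that fell were NOP2, AVT6, NIP7, CPA1, RPA43 and YAR1, of which AVT6 and CPA1 are described above. NOP2, an rRNA methyltransferase needed for the large ribosomal subunit, read −0.69 on replicate 1 and −1.44 on replicate 2, and fell by 1.07 ± 0.22 on the log2 scale (adjusted p = 0.0234). NIP7, which acts in assembly of the same subunit, read −0.76 and −0.84 (−0.80 ± 0.13, adjusted p = 0.00248). RPA43, a subunit of RNA polymerase I, which transcribes rRNA, read −0.49 and −0.72 (−0.60 ± 0.12, adjusted p = 0.0175). YAR1, a chaperone of the ribosomal protein Rps3, read −0.56 and −0.49 (−0.52 ± 0.12, adjusted p = 0.0467). As measured, each of these 4 genes was below 0 on both arrays by a similar amount, except NOP2, whose arrays differed by 0.75. With the dye term removed, NOP2 read −0.87 and −1.26, NIP7 −0.87 and −0.73, RPA43 −0.61 and −0.59, and YAR1 −0.67 and −0.38. None of them passed with 1 array left out, where NOP2 stood at −1.27 and −0.86, NIP7 at −0.72 and −0.88, RPA43 at −0.59 and −0.61, and YAR1 at −0.37 and −0.68 (without replicates 1 and 2 in turn), and none without the dye term (adjusted p = 0.0670 for NIP7 and 0.252 or more for the others). Of the 6 genes that fell, NIP7 and NOP2 alone were called without centring of the arrays or with array weights.

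NOP2 was the 1 called gene of 102 on the ribosome biogenesis list, and over all tested genes 0.54% were called. The median of that list was −0.15, and 47 of the 102 (46.1%) lay below 0 on both arrays against 23.5% of all tested genes. Of the list, 23 had an unadjusted p below 0.05 on the lower side against 2 on the higher. Among all 5366 tested genes, 494 had such a p in either direction. Just past the threshold were NOG2, a GTPase of large subunit assembly, at −0.78 and −0.60, and RIX1, of the same process, at −0.53 and −0.93 (adjusted p = 0.0590 for each). RPA43 was the 1 called gene of 21 subunits and factors of RNA polymerases I and III (median −0.21). Of the 21, 12 (57.1%) lay below 0 on both arrays, and RPA49 read −0.55 and −0.47 (adjusted p = 0.0999). None of 125 cytosolic ribosomal protein genes was called. Their median was 0.22 on replicate 1 and −0.36 on replicate 2. On both arrays 19 (15.2%) lay below 0 and 8 (6.4%) above, each under the 23.5% and 23.3% of all tested genes. None of 33 translation factors was called, the smallest p being that of the initiation factor SUI1 at −0.57 and −0.67 (adjusted p = 0.101).

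Among the other genes that rose, YOX1, a homeodomain repressor that limits early cell cycle genes, had the closest values between the arrays, at 0.99 and 1.05 (1.02 ± 0.12, adjusted p = 6.50e-05). Its spots on replicate 2 lay further apart, at 0.86 and 1.25. The 20 tested genes of the list of cyclins and cell cycle transcription held no called gene, against 0.54% of all tested genes called. YPS7, a member of the yapsin family of proteases anchored at the cell surface, read 0.69 and 0.81 (0.75 ± 0.14, adjusted p = 0.00842), DSC2, of a Golgi ubiquitin ligase, read 0.78 and 0.88 (0.83 ± 0.17, adjusted p = 0.0210), and the aldo-keto reductase GCY1 read 0.43 and 0.82 (0.63 ± 0.13, adjusted p = 0.0191). These last 3 and POM33 were named after their values were seen. DSC2 and GCY1 were called neither without replicate 1 (0.75 and 0.52) nor without replicate 2 (0.91 and 0.73), and YPS7 not without replicate 2 (0.49). None of the 3 was called without the dye term (adjusted p = 0.202, 0.9996 and 0.497).

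Of the higher calls, 3 came mainly from 1 array. CSE2, a Mediator subunit, read 2.45 on replicate 1, where its spots were 2.04 and 2.86, and 0.18 on replicate 2. Its estimate was 1.31 ± 0.29 (adjusted p = 0.0360), and without replicate 1 it stood at 0.11 and was not called. YPL039W, a gene of unknown function, read 0.40 and 2.55, and the spots of replicate 2 were 0.12 and 4.99. Its estimate was 1.48 ± 0.27 (adjusted p = 0.00816), and without replicate 2 it stood at 0.49 and was not called. POM33, a membrane protein of the nuclear pore, read 1.09 and 0.21, and the spots of replicate 1 were 0.35 and 1.82. It stood at 0.30 without replicate 1, where it was not called, against 0.65 ± 0.14 with both arrays. CSE2 and POM33 were not called without the dye term (adjusted p = 0.0670 and 0.386).

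**Figure D2:**
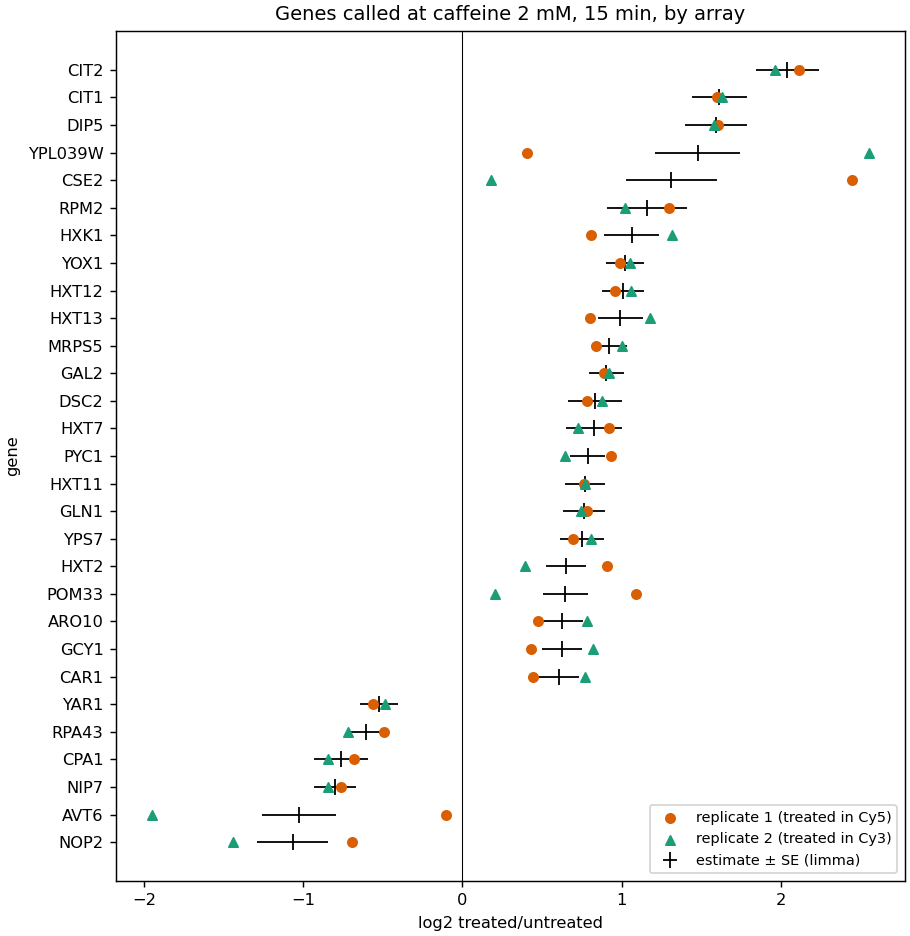
Log2 ratio of treated over untreated RNA for the 29 called genes (rows, by estimate), with replicate 1 as orange circles, replicate 2 as green triangles and the limma estimate with its SE as black bars. For most genes the arrays lie close together, whereas YPL039W, CSE2 and AVT6 differ by more than 1 between arrays.

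Of 35 gene lists, 25 held no called gene, and 14 of the 29 called genes were on no list. The lists nearest to the wall signalling known for caffeine were among those with none, and the general stress list held 1, HXK1. Over all tested genes 0.54% were called, so nothing is read from a count of 0 or 1 in lists of this size. None of 27 genes of cell wall integrity output under Rlm1 was called (median 0.08). Of these, 8 (29.6%) lay above and 8 below 0 on both arrays, against 23.3% and 23.5% of all tested genes. The highest of them, HSP150, which encodes a secreted Pir family protein, read 1.65 and 0.36 (1.0 ± 0.45, adjusted p = 0.518). None of 37 wall mannoproteins passed either, and TIR4, a mannoprotein of anaerobic cells, read 0.79 and 1.42 (1.10 ± 0.31, adjusted p = 0.248). The median of the mannoproteins was 0.38 on replicate 1 and −0.12 on replicate 2.

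None of 19 trehalose and glycogen genes was called, with a median of 0.17. Of the 19, 10 (52.6%) lay above 0 on both arrays, against 23.3% of all tested genes. Glycogen synthase GSY2 read 0.25 and 0.57 and UGP1, which makes UDP-glucose, read 0.50 and 0.28. None of 36 TOR complex members and effectors, of 20 genes of the Ras, cAMP and protein kinase A route, of 29 purine genes or of 22 multidrug resistance genes was called. Their medians were −0.05, 0.10, 0.02 and 0.07. The share called over all tested genes was 0.54%, so nothing is read from the counts of 0 in this paragraph. Among the purine genes the putative permease FCY22 read 0.52 and 0.50 (adjusted p = 0.118) and adenine deaminase AAH1 read −1.01 and −0.54 (adjusted p = 0.30). A gene with the median SE needed an estimate of about 0.73 to be called. The least change called was 0.52 in size, in a gene with a smaller SE (YAR1).

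**Figure D3:**
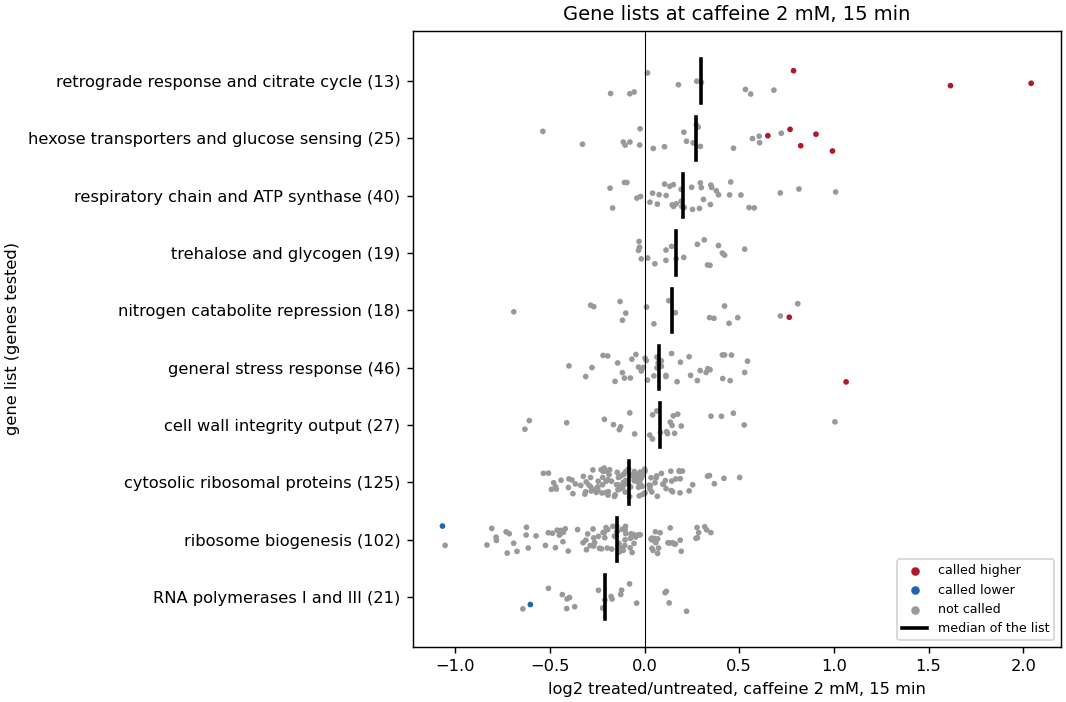
Limma estimates (log2 treated over untreated) of the tested genes of 10 lists at 2 mM caffeine, 15 min. Each point is a gene, red where called higher, blue where called lower and grey where not called, and black bars are list medians. Medians lie highest for the retrograde list (0.30) and lowest for RNA polymerases I and III (−0.21).

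The called genes were set beside the other caffeine conditions. They were chosen by their values at 2 mM and 15 min, and those values enter each difference below, so larger values here than elsewhere follow in part from that choice. The 3 differences also share the same 2 arrays. Between the doses at 15 min, 9 of the 29 genes differed (256 of 5245 genes, 4.88%). At 20 mM 8 of these 9 were higher, namely ARO10 (2.56 against 0.63, a difference of 1.93 ± 0.18, adjusted p = 1.8e-06), DIP5 (2.87 against 1.59), GAL2 (2.10 against 0.91), HXT13 (2.13 against 0.99), HXT7, HXT12, HXT11 and YPS7. YAR1 was further below 0 at 20 mM (−1.39 against −0.52). The citrate synthases were not shown to differ, with 95% intervals of the difference of 0.19 to 1.35 for CIT2 (adjusted p = 0.123) and of −0.00 to 1.02 for CIT1 (adjusted p = 0.266). In all, 21 of the 29 estimates were larger in size at 20 mM. YPL039W, CSE2, YOX1, MRPS5, GLN1, POM33, AVT6 and NOP2 were not, among them all 4 genes whose call came mainly from 1 array. Part of the labels of 1 of the 20 mM arrays gives another time than 15 min. Of the 9 differences, 0 were called by limma with the arrays scaled to one spread (4 over all genes), 1, that of ARO10, with only the caffeine arrays (8 over all genes), and 3, those of ARO10, GAL2 and HXT13, without the dye term (39 over all genes). The fit without replicate 1 of 2 mM called 4 of the 9 (178 over all genes), and that without replicate 2 called 6 (60 over all genes).

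From 15 to 90 min at 2 mM, 12 of the 29 genes differed (15 of 5360 genes, 0.28%). The 9 genes that had risen and were lower at 90 min included DIP5, from 1.59 to 0.18 (adjusted p = 0.0246), GAL2, from 0.91 to −0.04, and YOX1, from 1.02 to 0.12 (adjusted p = 0.0204 for each). HXT12, HXT13, HXT11, MRPS5, GCY1 and YPL039W made up the rest. YAR1, CPA1 and NIP7, which had fallen, stood at 0.42, 0.60 and 0.20 at 90 min. CIT2 stood at 0.77 and CIT1 at 0.62 at 90 min, and their differences from 15 min did not pass (adjusted p = 0.0565 and 0.0776). Neither was called by limma against untreated cells at 90 min (adjusted p = 0.280 and 0.332). All 29 estimates were smaller in size at 90 min than at 15 min, or on the other side of 0. Of the 12 differences, 0 were called without the dye term or with only the caffeine arrays, where limma called 0 genes in all (463 and 560 at an unadjusted p below 0.05), and 2, those of YOX1 and GAL2, with array weights. The fit without replicate 1 of 15 min called 4 of the 12 (8 over all genes), and that without replicate 2 called those of YAR1 and CPA1 (12 over all genes). Without replicate 1 of 5 min, an array of neither time, all 12 were called, among 181 over all genes.

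From 5 to 15 min at 2 mM, 6 of the 29 genes differed (90 of 5301 genes, 1.7%). YOX1 (0.21 to 1.02), HXT13 (0.05 to 0.99), GCY1 and YPL039W were higher at 15 min, and CPA1 (0.46 to −0.76) and AVT6 were lower. CIT2 already stood at 1.70 ± 0.20 at 5 min, CIT1 at 1.25 ± 0.17, DIP5 at 1.03 ± 0.20 and MRPS5 at 0.77 ± 0.11, each called against untreated cells at that time. On replicates 1 and 2 of 5 min, CIT2 read 2.26 and 1.14, CIT1 1.62 and 0.87, DIP5 0.95 and 1.11, and MRPS5 0.88 and 0.66. The differences from 5 min of CIT2 (0.34, 95% interval −0.24 to 0.92) and CIT1 (0.37, −0.15 to 0.88) did not pass. This comparison uses the 5 min array that ran against replicate 1, and the calls of the difference fell from 90 to 9 without replicate 1 of 15 min. Of the 6 differences, 0 were called without the dye term, with only the caffeine arrays, with array weights or with arrays scaled (1, 0, 1 and 2 over all genes, and 642, 621, 250 and 796 at an unadjusted p below 0.05). The fit without replicate 1 of 15 min called 3 of the 6, and that without replicate 2 called those of GCY1 and CPA1.

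**Figure D4:**
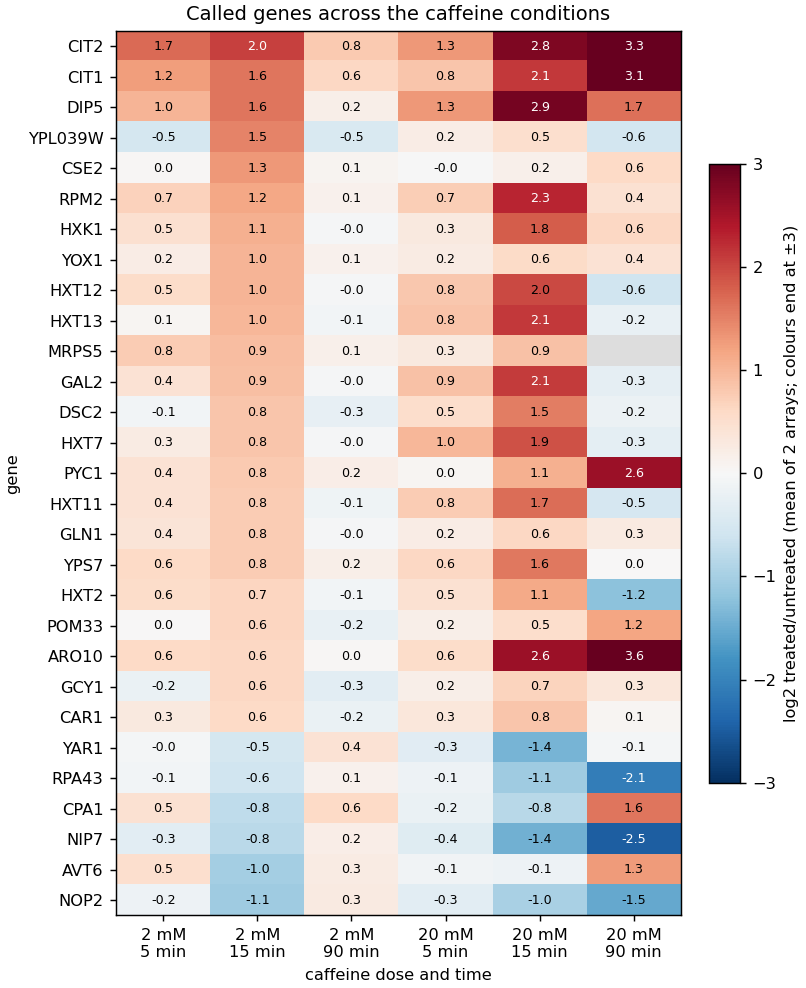
Log2 ratio of treated over untreated RNA of the 29 called genes (rows) in the 6 caffeine conditions (columns, dose and time), each cell the limma estimate from 2 arrays and grey where a value is missing. CIT2 and CIT1 are above 0 in every column, as are DIP5, RPM2, YOX1, PYC1, ARO10 and YPS7. Hexose transporter genes are highest at 20 mM and 15 min, and most genes are close to 0 at 2 mM and 90 min.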

How the data were processed

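Transcript ratios were read from the authors' deposited table of 36 arrays. The deposited values are log ratios in natural log (ln), a base read from the values, and every array averages 0. The sources used here do not say how the authors scanned, corrected and normalized the arrays. The deposited table holds no intensities, so signal over background is unknown.

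Of 15488 spots, 11872 carry a gene name and cover 5713 genes, nearly all with 2 spots. The most repeated value of an array, a floor held by 5.11% of named spots on replicate 1 and 3.01% on replicate 2, was treated as missing. Division by 0.693 gave log2 values, of which the mean per gene was taken and the median of the array subtracted. Gene symbols come from the platform annotation, updated through RefSeq. The genes tested had values on at least 24 arrays, including both of any condition in the comparison. The test was limma 3.58.1 in R 4.3.3, with 18 condition terms and a dye term, which is also the replicate block (17 residual degrees of freedom, a prior of 3.70). The block was kept because arrays of one replicate number deviated together from their condition means. Of 153 correlations between conditions, 153 exceeded 0.1, with a range of 0.114 to 0.826, and the 17 that involve 2 mM caffeine at 15 min ran from 0.183 to 0.768. P values were adjusted by Benjamini-Hochberg at 0.05 within a comparison.

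By rule, the 12 highest and 12 lowest called genes (6 were called lower) and up to 4 members of each list with the smallest p were named. Other names were chosen after their values were seen. The rule, the 35 lists and the settings tried were chosen with earlier results of these data known, so none is independent support. In data simulated with the real genes' noise and dye terms, for this comparison over 5366 genes, 84 of 100 genes changed by a log2 of 1 and 98 of 100 changed by 2 were recovered, with 7 false among 189 calls. The simulated noise was equal on all arrays, whereas the real arrays ranged in spread over genes from 0.20 to 0.74 (scaled median absolute deviation). These rates therefore need not hold for the calls above. Preparation used pandas 2.3.3, numpy 2.4.6 and scipy 1.17.1 in python 3.11.15. Promoter sequences were not used here.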

Additional observations from a re-analysis of the deposited data

Results flagged for a closer look

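The results below are differences of a called gene between caffeine conditions that passed limma's test of the difference itself. All are log2 differences between estimates of 2 arrays each, and the genes were chosen by their values at 2 mM and 15 min, which enter each difference. Dose differed in 9 genes at 15 min (20 mM minus 2 mM). ARO10 differed by 1.93, DIP5 by 1.28, GAL2 by 1.20, HXT13 by 1.13, HXT7 by 1.09, HXT12 by 0.98, HXT11 by 0.91, YPS7 by 0.83 and YAR1 by −0.86. The hexose transporters among them are closely related in sequence and do not count as separate observations.

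Time differed in 12 genes between 15 and 90 min at 2 mM (90 min minus 15 min). The negative differences were −1.42 for DIP5, −0.90 for YOX1, −1.05 for HXT12, −1.08 for HXT13, −0.78 for MRPS5, −0.95 for GAL2, −0.90 for HXT11, −0.93 for GCY1 and −1.95 for YPL039W. The positive ones were 0.95 for YAR1, 1.36 for CPA1 and 0.998 for NIP7. Each of these genes returned towards 0 or crossed it.

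Time also differed in 6 genes between 5 and 15 min at 2 mM (15 min minus 5 min), by 2.01 for YPL039W, 0.81 for YOX1, 0.94 for HXT13, 0.83 for GCY1, −1.22 for CPA1 and −1.52 for AVT6. The values of YPL039W and AVT6 at 15 min come from 1 of 4 spots. With spots over 1 log2 unit apart left out, a setting added after the data were seen, neither gene had a value.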

How the results depend on the processing

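The count of called genes at 2 mM and 15 min (29) stayed within 1.5 times when values were not centred (23), array weights (23), robust moderation (29), only genes on all 36 arrays (23), the 2 arrays alone (20, of which 8 were among the 29) or floored spots (24) were used, when arrays were scaled to one spread (39), and when spots over 1 log2 unit apart (31) or replicate 1 of 2 mM at 5 min (38) were left out, both added after the data were seen. The share called higher moved from 23 of 29 to 21 of 23 without centring, where HXT7, GCY1, YAR1, RPA43, CPA1 and AVT6 lost their call, and with weights, where RPM2, POM33 and those last 4 did. The count fell to 11 with no replicate block, 0 with only the caffeine arrays, and 16 with the sign of 2 mM 5 min replicate 1 turned, and was 18 without replicate 1 and 18 without replicate 2. It was 0 with the sign of replicate 1 turned and 2 with that of replicate 2.

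For 20 mM minus 2 mM (256), the count was 39 with no replicate block, 4 with arrays scaled, 8 with only the caffeine arrays, 60 to 178 without 1 of its 2 mM arrays, 361 without the 5 min array, 933 and 555 with replicate 1 or 2 turned. For 90 minus 15 min (15), it was 0 with no replicate block (463 unadjusted by limma), 38 scaled, 2 with array weights, 9 on genes of all arrays, 0 with only the caffeine arrays, 8 to 12 without 1 array, 1 and 0 with replicate 1 or 2 turned, 9 with the 5 min array turned, 181 without that array and 36 without disagreeing spots. For 15 minus 5 min (90), it was 1 with no replicate block, 49 not centred (30 higher, 19 lower, against 35 and 55), 2 scaled, 1 with array weights, 47 with floored spots, 0 with only the caffeine arrays, 9 to 74 without 1 array, 0 and 316 with replicate 1 or 2 turned, and 90 with the 5 min array turned, of which 3 were among the first 90. The cause was not tested.

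Turning 1 array reversed each of the 29 genes in 1 of 2 ways, since the array with the larger value then sets the sign, and no other setting reversed any. With replicate 1 turned, the values were −0.074 for CIT2, −0.012 for DIP5, −1.13 for CSE2, −0.14 for RPM2, −0.098 for HXT7, −0.14 for PYC1, −0.021 for GLN1, −0.26 for HXT2, −0.44 for POM33 and 0.037 for YAR1. With replicate 2 turned, they were −0.013 for CIT1, −1.07 for YPL039W, −0.26 for HXK1, −0.0298 for YOX1, −0.052 for HXT12, −0.19 for HXT13, −0.083 for MRPS5, −0.015 for GAL2, −0.048 for DSC2, −0.0012 for HXT11, −0.056 for YPS7, −0.15 for ARO10, −0.20 for GCY1, −0.16 for CAR1, 0.11 for RPA43, 0.081 for CPA1, 0.042 for NIP7, 0.92 for AVT6 and 0.37 for NOP2. The same turns (replicate 1, then 2, where both reversed) gave differences of 90 minus 15 min of 0.19 and 0.17 for DIP5, 0.0899 and 0.15 for YOX1 and 0.062 and 0.23 for MRPS5, and with replicate 2 alone 0.61 for YPL039W, 0.012 for HXT12 and 0.11 for HXT13. They gave differences of 15 minus 5 min of −0.18 and −0.24 for YOX1, and with replicate 2 alone −0.54 for YPL039W, −0.24 for HXT13 and 0.43 for AVT6. Over the values of single genes and the counts of called list members in other settings, 43 reversed, 326 lost their call in the same direction, 353 moved (a value with no call by more than its spread, a count by over 1.5 times), and 3283 did none of these. CIT2, CIT1 and DIP5 were called in 13 of 14 settings without a turned sign of these arrays, and lost with only the caffeine arrays (adjusted p = 0.115). The number of arrays and the unknown signal over background limit all of these.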
